A study of Homo sapiens with 6 samples.

Results

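The genes examined here encode 8 proteins of the caspase pathway. They are the TRAIL receptors TNFRSF10A and TNFRSF10B, the FAS receptor, the caspases CASP8 and CASP9, the caspase-8 regulator CFLAR, and the inhibitor of apoptosis (IAP) proteins XIAP and BIRC3. They were taken by name, by a rule that uses no measured value although earlier results of these data were known, and are 8 of the 26485 gene symbols in the count table. All 8 passed edgeR's filter on low counts. Expression was measured by RNA-seq in THP1, a line of human leukemia cells of the monocytic lineage, after 6 h with DMSO, the solvent, or with withaferin A (WFA), a steroidal lactone from Withania somnifera. Each group held 3 libraries, numbered 1 to 3, from independent experiments with this single cell line, and no other agent or genetic change is named for either group. The sample labels give the WFA concentration as 1 mM and the study's methods give 1 μM. The study used the libraries to ask which transcripts changed after short exposure to WFA, and they are used here to ask how the genes that start, carry and restrain caspase activation stood among them.

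Death receptors are membrane proteins of the tumor necrosis factor (TNF) receptor family with a cytoplasmic death domain. When TRAIL binds TNFRSF10A or TNFRSF10B, or FAS ligand binds FAS, the adaptor FADD joins the receptor and recruits CASP8, which then cleaves itself and downstream executioner caspases. CFLAR, also called c-FLIP, resembles CASP8 but lacks its protease activity and competes for the same complex. In the mitochondrial route, cytochrome c and APAF1 form the apoptosome, which activates CASP9. XIAP binds and blocks CASP9 and the executioners, whereas BIRC3, also called cIAP2, is a ubiquitin ligase of TNF receptor complexes.

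Total counts per library ranged from 11006035 to 13872810, and 1 count corresponded to between 0.0703 and 0.0931 CPM (counts per 1000000, scaled with edgeR's TMM factors). The 100 most abundant genes took 17.5 to 19.8% of the counts with DMSO and 23.2 to 23.5% with WFA. All 8 myeloid markers on a list for the identity of the line were detected and tested, and 5 of them were called. CD14, CD33, CSF1R and SPI1 fell, with log2 changes of -1.22, -0.85, -0.40 and -0.34, and CD68 rose, with 0.37 (largest edgeR adjusted p = 0.0461, for SPI1). LYZ, ITGAM and MPO did not pass the threshold. The summed level of the 8 was 2341 to 2862 CPM with DMSO and 2116 to 2880 CPM with WFA, most of it LYZ. Of 12 markers of other cell types, 9 had at most 3 counts in every library, and the summed level of the 12 was 1.20 to 2.67 CPM with DMSO and 10.6 to 14.2 CPM with WFA. COL1A1, a collagen chain gene, made up most of that rise, from 0.453 ± 0.333 CPM to 9.95 ± 2.27 CPM (SD, n = 3 each), while COL3A1, CD3E, MS4A1, HBB and CDH5 were at or near 0. The part of these shifts in the results was not tested. In bulk libraries such as these, fewer cells that express a gene and less RNA per cell cannot be told apart.

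Of the 8 genes, 5 rose with WFA and 1 fell, at an adjusted p under 0.05 in edgeR's quasi-likelihood test with adjustment over all 12854 tested genes. TNFRSF10A, TNFRSF10B, CFLAR, CASP8 and CASP9 rose, BIRC3 fell, and FAS and XIAP did not pass the threshold. WFA changed a large part of the transcriptome, with 50.5% of all tested genes called, 25.8% as higher and 24.7% as lower, so that 6 of 8 is to be read against that share. BIRC3 was the only one of the 8 called with a change over 2-fold, which 8.11% of tested genes showed as a rise and 5.20% as a fall. The median log2 fold change was 0.50 over the 8 genes and 0.02 over all tested genes. CPM values of the WFA libraries lay wholly above those of the DMSO libraries for 5 of the 8 genes and wholly below for 1, and over all tested genes 58.1% separated in this way, 29.6% with WFA higher and 28.5% with WFA lower. An exact two-sided permutation test over the 6 libraries gave p = 0.1 for each of these 6 genes, which is the smallest value that 3 against 3 allows. All p-values refer to these libraries of 1 cell line. Those of edgeR also draw the variance of each gene towards that of other genes, with 10.8 prior against 4 residual degrees of freedom.

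**Figure D1:**
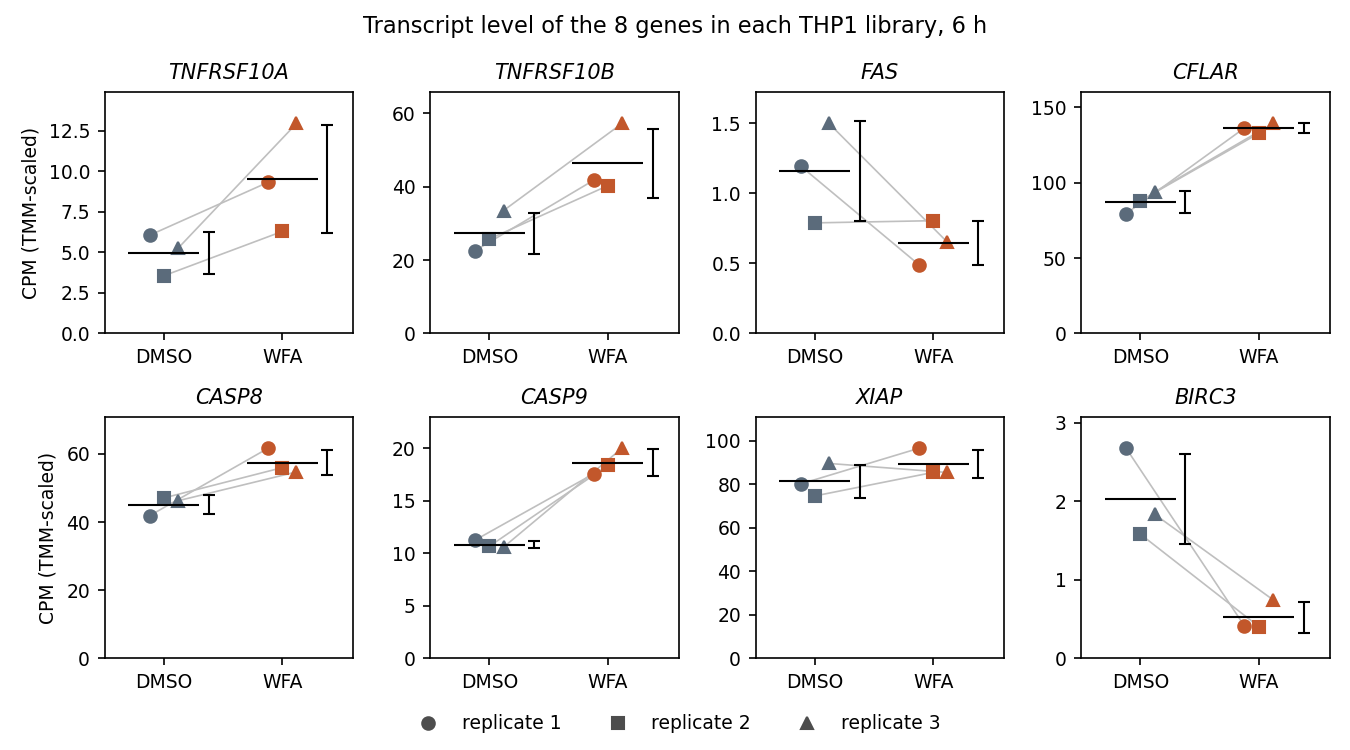
Level of each of the 8 genes in CPM (vertical axis, from 0, on a separate scale per gene) in the 3 DMSO and 3 WFA libraries. Symbols mark replicates, grey lines join libraries of the same number, horizontal bars are means and error bars SD (n = 3). The WFA points lie above all DMSO points for TNFRSF10A, TNFRSF10B, CFLAR, CASP8 and CASP9 and below them for BIRC3, and the groups overlap for FAS and XIAP.

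Both TRAIL death receptors rose. TNFRSF10B, also called DR5, lies on chromosome 8 at 23020133 to 23069179 (GRCh38, minus strand, GENCODE 29). It had 22.6, 25.7 and 33.5 CPM in DMSO replicates 1, 2 and 3, and 41.7, 40.3 and 57.2 CPM in the WFA replicates. Replicate 3 was the highest of its group under both conditions, and the lowest WFA library was above the highest DMSO library. The means were 27.3 ± 5.62 and 46.4 ± 9.39 CPM (SD, n = 3 each), a 1.70-fold rise with a log2 change of 0.77 ± 0.15 (SE; edgeR adjusted p = 0.000751). The log2 difference within same-numbered libraries was 0.88, 0.64 and 0.77, so the separate experiments gave rises of similar size.

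TNFRSF10A, also called DR4, lies on the same strand at 23190452 to 23225126. Its level was 6.05, 3.55 and 5.25 CPM with DMSO and 9.31, 6.28 and 12.9 CPM with WFA. Its WFA libraries had a coefficient of variation of 35.0%, the highest of the 5 genes that rose, and WFA replicate 2 was only just above DMSO replicate 1. The fitted change was 1.90-fold, or 0.93 ± 0.25 on the log2 scale (SE; edgeR adjusted p = 0.00653). Leaving out WFA replicate 3 lowered this to 0.65, with an edgeR adjusted p of 0.0471. An antisense gene, TNFRSF10A-AS1, overlaps 224 bases (8.25%) of the annotated TNFRSF10A exons. Reads from the 2 strands cannot be told apart there, since the libraries do not mark strand.

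The receptors that bind TRAIL without a working death domain, called decoy receptors, also rose, and the ligand fell. TNFRSF10D had 7.03, 8.29 and 10.1 CPM with DMSO and 22.0, 22.1 and 31.8 CPM with WFA, a log2 change of 1.58 ± 0.18 (SE; edgeR adjusted p = 3.21e-06). TNFRSF10C, named here after its values were seen, was low, with 7 to 9 counts in the DMSO libraries and 16 to 36 counts in the WFA libraries (log2 change 1.76 ± 0.38, SE; edgeR adjusted p = 0.00117). A gene on the same strand, AC107959.4, overlaps 485 bases (28.2%) of the annotated TNFRSF10C exons. All 4 receptor genes lie together on chromosome 8, within 23020133 to 23225126, and each was higher in every WFA library than in every DMSO library. TNFSF10, the gene for TRAIL itself, had 16.2, 17.9 and 16.9 CPM with DMSO and 10.5, 10.4 and 6.79 CPM with WFA, a 1.83-fold fall (log2 change -0.87 ± 0.16, SE; edgeR adjusted p = 0.000384). Receptors and ligand of this axis thus moved in opposite directions in these libraries.

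FAS, on chromosome 10 at 88990582 to 89015785, was near the lower limit of what the libraries can resolve. It had 17, 10 and 18 counts in the DMSO libraries and 6, 10 and 7 counts in the WFA libraries, which is 1.16 ± 0.356 and 0.649 ± 0.158 CPM (SD, n = 3 each). Replicate 2 had the same count in both groups, and the groups overlapped. The log2 difference was -0.83 ± 0.38 (SE), with a 95% interval from -1.63 to -0.02 and an edgeR adjusted p of 0.0828, so at this depth a fall of over 2-fold and a difference close to 0 are both within the interval. FASLG, the FAS ligand gene, was at the floor of 3 counts or fewer in every library.

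The remaining receptors of the family were taken from a list of 9 genes, of which 6 were tested. All 6 were called, 4 as higher and 2 as lower, where 50.5% of all tested genes were called. TNFRSF1A, the TNF receptor that carries a death domain, rose from 66.5 ± 2.92 to 99.2 ± 4.32 CPM (SD, n = 3 each; log2 change 0.58, edgeR adjusted p = 4.57e-05). TNFRSF1B, the TNF receptor without one, fell from 69.0 ± 5.19 to 32.6 ± 1.66 CPM (log2 change -1.08, edgeR adjusted p = 3.82e-07). The largest fall was that of TNFRSF21, a death receptor also called DR6, from 70.5 ± 9.97 to 18.9 ± 4.92 CPM (log2 change -1.89, edgeR adjusted p = 1.55e-07). The fourth gene called as higher was TNFRSF12A, the receptor for TWEAK, which had 9 to 19 counts with DMSO and 57 to 62 counts with WFA.

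Of 7 ligand genes, TNFSF10 and TNFSF15 were tested, and TNFSF15 did not pass the threshold. TNF and LTB had no count in any library and LTA had at most 1, but these 3 genes cannot be read as silent. They lie in the major histocompatibility region of chromosome 6, where 118 of 142 protein-coding genes between HLA-F and DAXX (83.1%) had at most 3 counts in every library, against 29.9% of 18411 protein-coding genes elsewhere. DAXX, which encodes a FAS-binding protein and lies at the end of that region, was among them with at most 2 counts.

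Downstream of the receptors, CASP8 and its regulator CFLAR both rose, and CFLAR rose further. The genes lie on the plus strand of chromosome 2, CFLAR at 201116104 to 201176687 and CASP8 at 201233443 to 201287711. CASP8 had 41.9, 47.1 and 46.2 CPM with DMSO and 61.7, 56.0 and 54.7 CPM with WFA. Each WFA library was above each DMSO library, with the widest gap in replicate 1, where the log2 difference was 0.56 against 0.25 and 0.24 in replicates 2 and 3. The fitted rise was 1.28-fold, the smallest of the 5 (log2 change 0.35 ± 0.09, SE; edgeR adjusted p = 0.0062).

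CFLAR had 79.4, 88.0 and 93.7 CPM in the DMSO libraries and 136, 133 and 139 CPM in the WFA libraries. The WFA libraries lay close together, with an SD of 3.29 CPM around a mean of 136 CPM, and none came near the DMSO range. The change was 1.56-fold (log2 change 0.64 ± 0.09, SE; edgeR adjusted p = 2.16e-05). CFLAR has 12 transcripts in the basic annotation, among them long and short protein forms, and counts per gene do not separate them. Exons of a pseudogene, IMPDH1P10, overlap 1488 bases (7.21%) of its annotated exons on the other strand, and the antisense gene CFLAR-AS1 overlaps further bases.

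CASP10, the closest relative of CASP8 and its neighbour between CFLAR and CASP8 on chromosome 2, rose further than either, from 18.0 ± 2.24 to 43.7 ± 0.487 CPM (SD, n = 3 each; log2 change 1.28 ± 0.11, SE; edgeR adjusted p = 3.5e-07). Across a list of adaptors, kinases and ubiquitin ligases of receptor complexes, 20 of 21 genes were tested, 6 rose, 2 fell and 12 did not pass the threshold, with a median log2 fold change of 0.14. With the replicate number as a block, 8 of them rose and 4 fell. The count of lower genes was 5 with total counts in place of TMM, and 1 without DMSO replicate 1, 2 or 3 or WFA replicate 2. MLKL, which ruptures the membrane in necroptosis, rose from 39.1 ± 3.06 to 122 ± 6.21 CPM (log2 change 1.64, edgeR adjusted p = 3.01e-09). OTULIN, a deubiquitinase for linear ubiquitin chains, rose from 74.8 ± 5.76 to 177 ± 5.52 CPM (log2 change 1.24, edgeR adjusted p = 2.96e-08). PEA15, a death effector domain protein that can bind FADD and CASP8, rose from 151 ± 25.2 to 409 ± 22.0 CPM (log2 change 1.44, edgeR adjusted p = 9.18e-08). These 3 had the smallest p-values on the list and all rose over 2-fold.

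FADD, the adaptor itself, had 27.2, 27.2 and 28.8 CPM with DMSO and 22.3, 22.3 and 25.2 CPM with WFA. Every WFA library was below every DMSO library, but the log2 difference of -0.26 ± 0.11 (SE) had an edgeR adjusted p of 0.0642, or 0.0357 when the replicate number was added as a block. FADD is singled out after its values were seen. A gene on the other strand, AP000879.1, overlaps 976 bases (53.0%) of the annotated FADD exons, and the libraries do not mark strand. Other central adaptors, RIPK1 and TRADD, had log2 differences of 0.08 and 0.21 that did not pass the threshold (edgeR adjusted p = 0.611 and 0.379).

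In the mitochondrial route, CASP9 rose and its activating partner APAF1 fell. CASP9 lies on chromosome 1 at 15490832 to 15526534 (minus strand). It had 11.3, 10.7 and 10.6 CPM in DMSO replicates 1 to 3 and 17.6, 18.4 and 20.01 CPM in the WFA replicates. The DMSO values varied by an SD of only 0.368 CPM around 10.8 CPM, and all WFA values were far outside that spread. The change was 1.72-fold (log2 change 0.78 ± 0.13, SE; edgeR adjusted p = 0.00013), with within-pair log2 differences of 0.63, 0.78 and 0.91.

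APAF1, the scaffold of the apoptosome, had 147, 149 and 163 CPM with DMSO and 84.1, 83.8 and 77.7 CPM with WFA, a 1.87-fold fall (log2 change -0.90 ± 0.08, SE; edgeR adjusted p = 5.86e-07). It was the only one of the 6 apoptosome and mitochondrial genes on the list to be called, where scaling by total counts called 2 as lower. CYCS, which encodes cytochrome c, had 271 ± 17.6 and 247 ± 34.0 CPM (SD, n = 3 each), and DIABLO and HTRA2, which encode IAP antagonists released from mitochondria, had log2 differences of -0.07 and 0.20 that did not pass the threshold (edgeR adjusted p = 0.562 and 0.197).

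Among the other caspases, 7 of 9 were tested, 5 rose and 1 fell, with a median log2 fold change of 0.81. CASP1, the inflammatory caspase of the inflammasome, rose from 79.5 ± 4.76 to 165 ± 2.93 CPM (SD, n = 3 each; log2 change 1.05, edgeR adjusted p = 1.1e-07). CASP4 and CASP6 also rose, and CASP2 fell with a log2 change of -0.39 (edgeR adjusted p = 0.0011). Those that rose, here and above, included caspase genes of the receptor route, the mitochondrial route and the inflammasome. Over all tested genes 50.5% were called and 25.8% were higher, and these counts are to be read against that share.

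Of the 2 IAP genes, BIRC3 fell and XIAP did not pass the threshold. BIRC3 lies on chromosome 11 at 102317450 to 102339403 (plus strand). It had 38, 20 and 22 counts in the DMSO libraries and 5, 5 and 8 counts in the WFA libraries, which is 2.67, 1.58 and 1.83 CPM against 0.408, 0.403 and 0.744 CPM. All WFA libraries lay below the lowest DMSO library, although the counts behind the WFA values are few. The fitted change was a 3.95-fold fall (log2 change -1.98 ± 0.37, SE; edgeR adjusted p = 0.000434), with a 95% interval from -2.78 to -1.19. Only 344 of the 12854 tested genes, with BIRC3 as the last of them, had a change at least as large in either direction. With a minimum of 30 counts in the filter in place of 10, BIRC3 was no longer tested.

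XIAP, on chromosome X at 123859724 to 123913979 (plus strand), had 80.1, 74.5 and 89.5 CPM with DMSO and 96.5, 85.4 and 85.3 CPM with WFA. WFA replicate 1 was the highest of all 6, while the other WFA libraries lay within the DMSO range, and replicate 3 went down where replicates 1 and 2 went up. The log2 difference was 0.13 ± 0.09 (SE; edgeR adjusted p = 0.262), with a 95% interval from -0.07 to 0.33, whose upper end lies just below the fitted rise of CASP8, the smallest of the 5. Of the 7 genes on the list of other IAP proteins and XAF1, 4 were tested and 1 was called. The number called as lower was 2 with DESeq2's size factors, total counts, the replicate block or without WFA replicate 3, and 3 with no filter. BIRC2, the neighbour and close relative of BIRC3 that encodes cIAP1, had 82.3 ± 6.58 and 75.1 ± 2.80 CPM (SD, n = 3 each; log2 difference -0.13, edgeR adjusted p = 0.236). XAF1, which encodes a protein that binds and antagonizes XIAP, fell from 38.6 ± 4.57 to 18.6 ± 3.80 CPM (log2 change -1.06, edgeR adjusted p = 2.22e-05). A gene on the other strand, PRAL, overlaps 2535 bases (69.9%) of the annotated XAF1 exons. The libraries do not mark strand, so reads of PRAL in the XAF1 counts cannot be told apart.

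BIRC3 and CFLAR are both known targets of NF-κB, the transcription factor that acts downstream of TNF receptors, and they moved in opposite directions here. The sequence before the RefSeq start sites of the genes was searched for short motifs. A promoter entry was found for 6 of the 8 genes, all but TNFRSF10A and TNFRSF10B. In the 250 bases before the start, none of these 6 held GGANTTTCC, an NF-κB-like core, TGACGT, part of the site of CREB and ATF factors, or GAANNTTC, a pair of heat shock units, on either strand. Of all 27305 promoters of this length, 1.47%, 7.42% and 5.85% held them. The full NF-κB consensus of 10 letters, searched for after the sequences had been seen, was found in BIRC3 and CFLAR only and in 5.05% of all promoters. Matches are in capitals below. Stretches are shown only for called genes that held a match, so the match decided which were picked. CASP8 and CASP9, also called, held none of these motifs. The BIRC3 stretch is 11:102317234-102317449 (GRCh38, plus strand) and leaves out bases annotated as exon. The CFLAR stretch, 2:201118609-201118638 (plus strand), is the match with flanking bases only, since its window overlaps annotated exons. The CFLAR start used here, 201118716, lies inside the annotated gene, which begins at 201116104. Bases before the first position of that gene were not searched.
BIRC3: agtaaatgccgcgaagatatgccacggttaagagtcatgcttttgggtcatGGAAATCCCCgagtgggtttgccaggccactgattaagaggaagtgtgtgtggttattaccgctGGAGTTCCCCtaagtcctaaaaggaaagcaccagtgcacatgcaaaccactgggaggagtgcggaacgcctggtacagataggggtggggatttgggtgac
CFLAR: cgcggggggcGGGGAATTCCgcagacagga
BIRC3 held 2 matches, beginning 199 and 135 bases before its start, and CFLAR held 1, beginning 97 bases before its start inside the gene. A match describes the letters and not a bound site.

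Substrates of caspases formed the last list, with all 12 genes tested, 2 called as higher and 4 as lower. The count of higher genes was 1 with total counts, with no filter, and without DMSO replicate 1, 2 or 3 or WFA replicate 3. The smallest p-values were those of CAD, an enzyme of pyrimidine synthesis, which fell from 99.5 ± 11.9 to 37.7 ± 2.78 CPM (SD, n = 3 each; log2 change -1.40, edgeR adjusted p = 6.18e-08), and of LMNB1, lamin B1, which fell from 396 ± 10.8 to 167 ± 18.5 CPM (log2 change -1.25, edgeR adjusted p = 7.24e-08). DFFA, the inhibitor of the caspase-activated DNase, rose from 25.7 ± 1.95 to 38.3 ± 3.16 CPM (log2 change 0.57, edgeR adjusted p = 0.00048). BID, which CASP8 cleaves to reach the mitochondrial route, had 58.8 ± 0.410 and 64.1 ± 5.83 CPM and did not pass the threshold (edgeR adjusted p = 0.276). Over the 7 lists of other pathway genes, 57 of 71 were tested, 17 were called as higher and 12 as lower, and their median log2 fold change was 0.04. The share called, 50.9%, is close to the 50.5% over all tested genes. With total counts in place of TMM, 15 were called as higher and 17 as lower, so the balance of directions over these lists depends on the scaling.

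**Figure D2:**
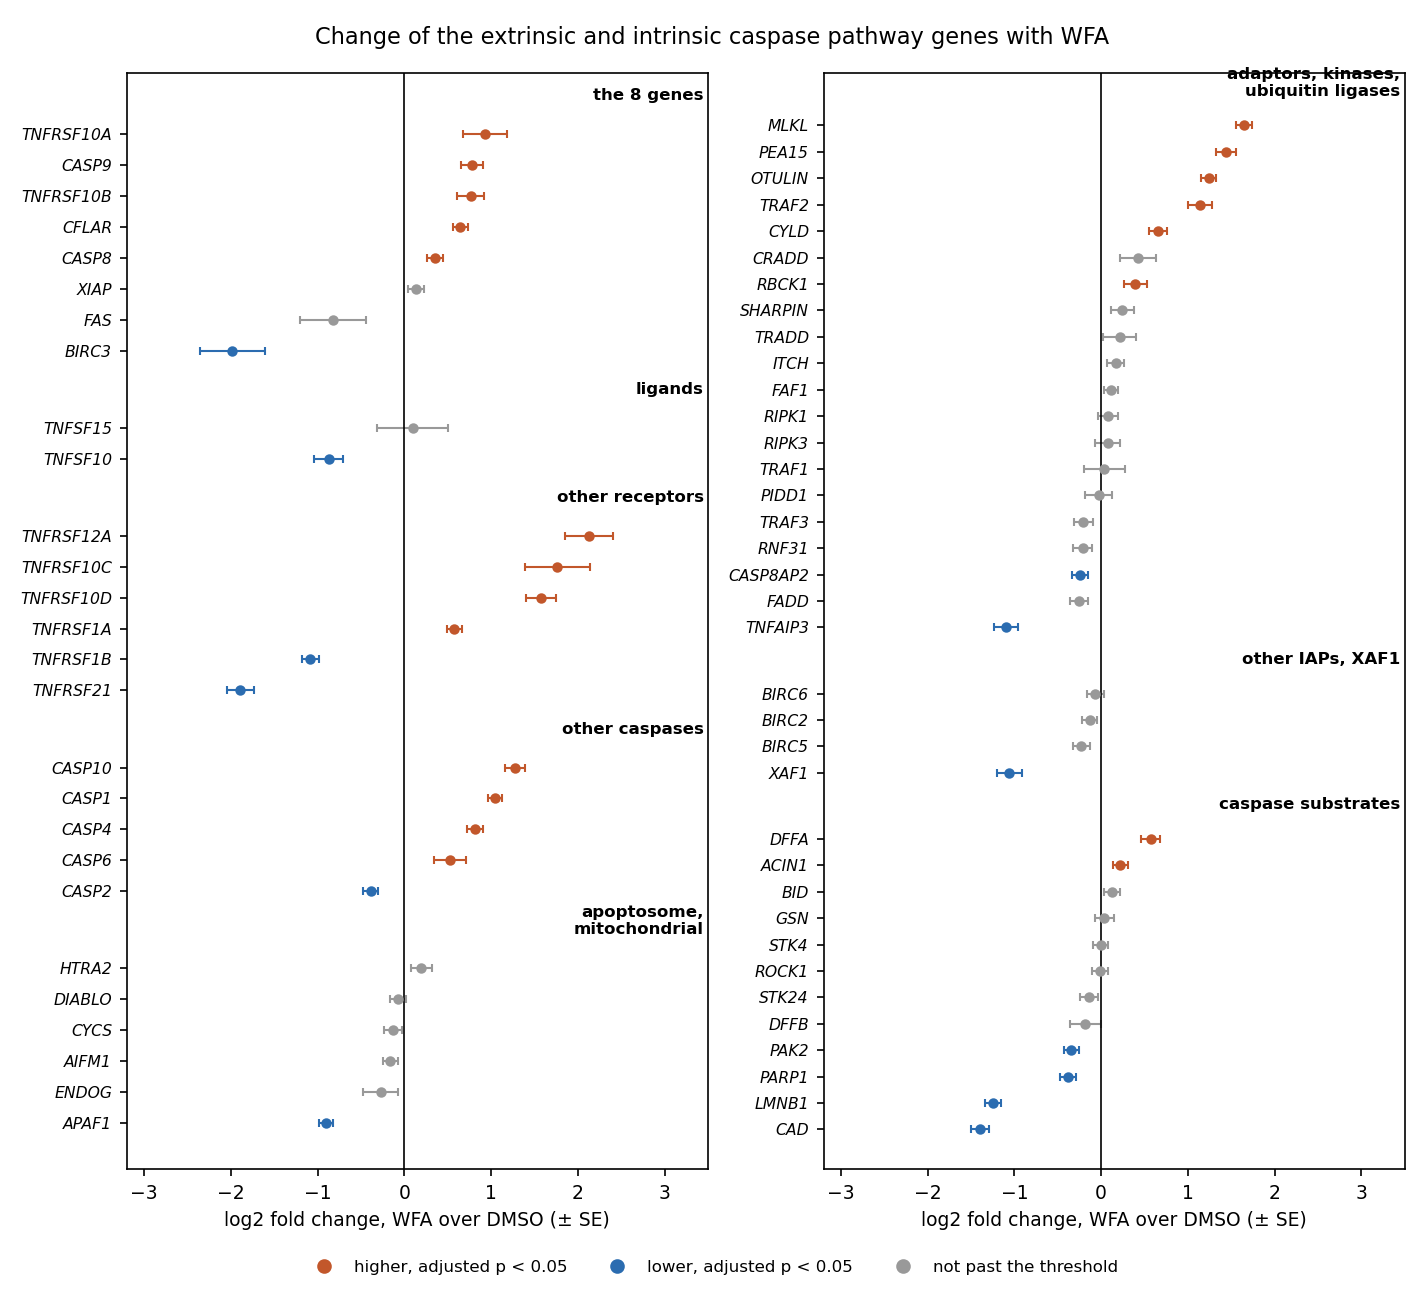
Fitted log2 fold change of WFA over DMSO (horizontal axis, error bars are SE) for the 8 genes and 55 of the 57 tested genes of the 7 pathway lists, grouped by role. Orange points rose and blue points fell at an adjusted p under 0.05, and grey points did not pass. The 8 genes run from -1.98 for BIRC3 to 0.93 for TNFRSF10A.

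Levels of different genes were compared per length, as CPM per kilobase of annotated exon (GENCODE 29 basic set). With DMSO the order was CASP8 at 11.4 ± 0.712, XIAP at 9.10 ± 0.845, TNFRSF10B at 6.58 ± 1.35, CFLAR at 4.22 ± 0.349, CASP9 at 2.35 ± 0.0799, TNFRSF10A at 1.82 ± 0.470, FAS at 0.450 ± 0.138 and BIRC3 at 0.294 ± 0.0828 CPM per kilobase (SD, n = 3 each). By this length, neighbours in the order did not overlap between libraries, except FAS and BIRC3. With WFA, TNFRSF10B at 11.2 ± 2.27 took the place before XIAP at 9.97 ± 0.718 CPM per kilobase, but the libraries of the pair overlapped, as did those of CASP9 and TNFRSF10A. BIRC3 was the lowest in both groups and stood 3.35-fold below FAS with WFA, without overlap. The level of CFLAR depends on the length used, since its annotated exons add up to 20.6 kilobases. By its longest transcript, its DMSO mean was 5.93 CPM per kilobase. The lowest DMSO library of TNFRSF10B was at 5.45, so CFLAR and TNFRSF10B then overlapped.

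**Figure D3:**
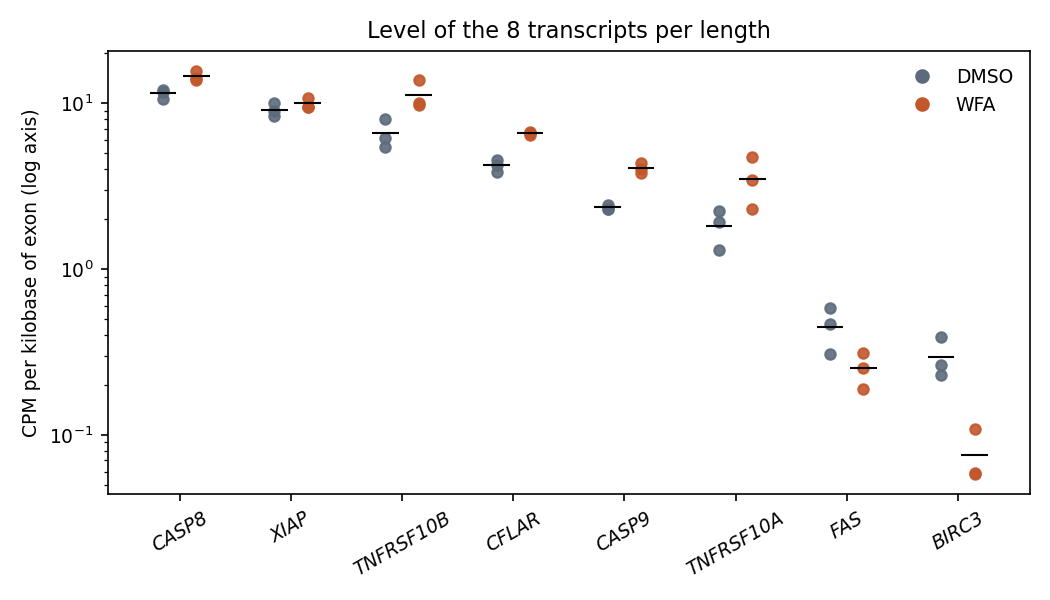
Level of the 8 transcripts in CPM per kilobase of annotated exon (log axis) in the DMSO and WFA libraries, ordered by the DMSO mean. Points are libraries and horizontal lines are means of 3. CASP8 is highest in both groups, at 11.4 and 14.6, and BIRC3 lowest, at 0.294 and 0.0750.

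Ratios of counts within a library do not depend on how libraries are scaled, and 4 were compared. The CFLAR to CASP8 count ratio was 1.90, 1.87 and 2.03 with DMSO and 2.21, 2.37 and 2.54 with WFA, without overlap (mean log2 difference 0.30, exact two-sided permutation p = 0.1, n = 3 against 3). The XIAP to CASP9 ratio was 7.09, 6.97 and 8.43 with DMSO and 5.48, 4.64 and 4.26 with WFA, a mean log2 difference of -0.65 without overlap (exact permutation p = 0.1). In every pair of libraries the CFLAR to CASP8 ratio was thus higher and the XIAP to CASP9 ratio lower with WFA. For the latter, CASP9 rose while XIAP did not pass the threshold. These are ratios of RNA counts, and the proteins were not measured in these libraries. The BIRC3 to BIRC2 ratio was 0.0359, 0.0183 and 0.0226 with DMSO and 0.00580, 0.00584 and 0.0110 with WFA, a mean log2 difference of -1.77 (exact permutation p = 0.1). With 5 counts added to each gene in place of 0.5, this difference was -1.23, since BIRC3 has few counts. The TNFRSF10B to TNFRSF10A ratio was 3.72, 7.18 and 6.34 with DMSO and 4.47, 6.38 and 4.41 with WFA, so it varied more among DMSO libraries than between the groups (mean log2 difference -0.14, exact permutation p = 0.9). For the first 3 ratios 0.1 is the smallest p that this design allows, and adjusted over the 4 ratios by the Benjamini-Hochberg method it becomes 0.133.

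**Figure D4:**
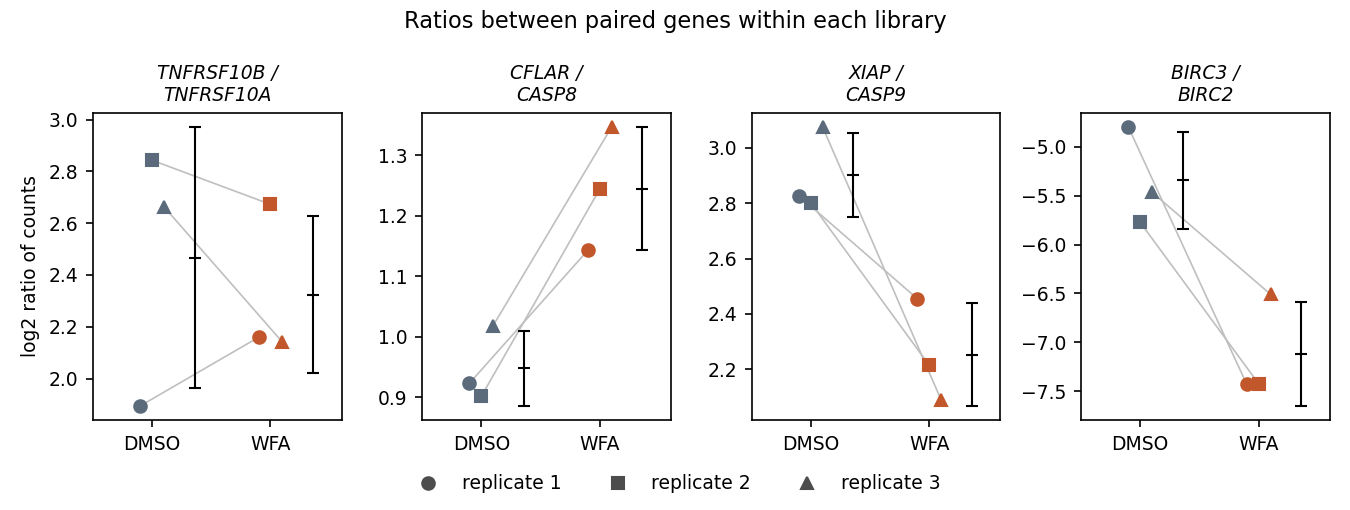
Log2 ratio of counts of paired genes within each library (vertical axis, a separate scale per pair, not starting at 0). Symbols mark replicates, grey lines join same-numbered libraries, and black bars are mean ± SD (n = 3). With WFA, CFLAR to CASP8 is higher and XIAP to CASP9 and BIRC3 to BIRC2 are lower in all 3 pairs, while TNFRSF10B to TNFRSF10A is higher in replicate 1 and lower in replicates 2 and 3.

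For each of the 8 genes, the pathway gene with the nearest profile was found among the 57 tested, by the Euclidean distance between mean-centred log2 CPM values over the 6 libraries. CFLAR and TNFRSF10B both lay nearest to DFFA, at distances of 0.246 and 0.473, where the median distance to all 57 was 0.966 and 1.17. CASP9 lay nearest to TNFRSF1A (0.261) and CASP8 to ACIN1 (0.258). XIAP had the closest partner of all, ITCH at 0.0999, a gene that did not pass the threshold either. TNFRSF10A lay nearest to CYLD (0.830), FAS to APAF1 (0.710) and BIRC3 to CAD (0.807). With 2 groups of 3 libraries, such distances are set mainly by the change with WFA, and for FAS and BIRC3 by few counts.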

How the data were processed

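RNA-seq libraries were made from total RNA with the Illumina TruSeq RNA v2 protocol, which does not mark strand. The authors deposited raw read counts per gene symbol, without normalization, for the 6 libraries. The submitters' processing notes name hg38, bcl2fastq 2.19, Trimmomatic, Bowtie2, Picard, featureCounts and DESeq2. The annotation and the counting of shared reads are not given in the sources used here. The file also holds 6 columns of scaled counts and the authors' own comparison (fold changes, p-values, dispersions), which were not used.

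Counts were compared with edgeR 4.0.16 (R 4.3.3) after TMM scaling and filterByExpr (minimum count 10), by its quasi-likelihood test without a block. Benjamini-Hochberg adjustment covered 12854 tested genes, with a threshold of 0.05. Log2 CPM used a prior count of 2 and ratios 0.5 added counts. The fits were tested on simulated counts. DESeq2 1.42.0, other scalings, filters, a robust fit, a replicate block and leaving out each library were alternatives. Same-numbered libraries share a code in their labels, and their deviations from the group means correlated at 0.217, 0.333 and 0.245 across genes, so the number was taken to pair them. The highest correlation between differently numbered libraries was 0.00369. Libraries of a group differed by more than sampling noise (chi-square divided by genes 5.98 to 11.1), so each counted as 1 replicate. Total counts of 11006035 to 13872810 set the precision. A gene with at most 3 counts in every library of a group was treated as at the floor, which covers counting error only.

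The 8 genes, the lists and the tests were chosen with earlier results of these data known, although the rule for the 8 uses no measured value. Genes named besides the 8 are, per list, up to 3 called genes with the smallest p, the second gene of a ratio and the nearest profile. Other genes of the lists were named after their values were seen, and some list genes are not reported here. Exon lengths and coordinates come from GENCODE 29 (GRCh38) and promoter sequences from RefSeq (GRCh38.p14). Protein sequences were not used here.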

Additional observations from a re-analysis of the deposited data

How the results depend on the processing

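The direction and call of each of the 8 genes held under every alternative in which the gene was tested, namely DESeq2's size factors, total counts and upper-quartile scaling, no filter, a minimum count of 30, DESeq2's Wald test, a robust fit, the replicate block and the 6 fits without one library. The exceptions were FAS and BIRC3 at a minimum count of 30, where neither was tested, so that 0 of the 8 genes were called as lower. The largest adjusted p over these fits was 0.0471 for TNFRSF10A and 0.041 for CASP8, and the smallest for FAS was 0.0509. With the replicate block, 5 of the 8 genes were called as higher and 1 as lower, as without it, and over all genes 3877 were higher and 3708 lower, against 3311 and 3178. The block changed the call of none of the 8, but FADD, TRAF3, SHARPIN, CRADD and BIRC5 passed the threshold with it (edgeR adjusted p = 0.0357, 0.0499, 0.0365, 0.0367 and 0.0105) and not without it. Over the 7 pathway lists it gave 19 higher and 15 lower, against 17 and 12. Scaling by total counts gave 2763 higher and 3875 lower over all genes. The fit with the block had 2 residual degrees of freedom and an infinite prior, against 4 and 10.8 without the block. Its p-values thus rest on variance taken from other genes. The TNFRSF10B to TNFRSF10A ratio had log2 differences from -0.43 to 0.045 when single libraries were left out, and changed sign without DMSO replicate 2. As the mean of the 3 pairs, the ratios had the same differences, with an exact sign-flip p of 0.25 at best, the smallest that 3 pairs allow. With the longest transcript in place of all exons, the level per kilobase moved to 5.93 with DMSO and 9.27 with WFA for CFLAR, to 15.4 and 19.6 for CASP8, and to 0.390 with DMSO for BIRC3, because the length itself is shorter. An NF-κB match was found in 0 of 6 promoters with the 9-letter core and in 2 with the consensus added after the data were seen. Depth limits FAS, BIRC3 and TNFRSF10C, whose libraries hold from 5 to 38 counts.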

Other observations

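A few relatives of the 8 genes were compared within libraries after their values had been seen, and these ratios are given as descriptions with no test. The count ratio of the decoy receptor TNFRSF10D to the death receptor TNFRSF10B was 0.313, 0.323 and 0.302 in DMSO replicates 1 to 3 and 0.527, 0.548 and 0.556 in the WFA replicates. It varied little within each group, although both genes were highest in replicate 3 of each group. The ratio of CASP10 to CASP8 was 0.434, 0.430 and 0.341 with DMSO and 0.711, 0.771 and 0.806 with WFA. The ratio of APAF1 to CASP9 was 13.1, 14.0 and 15.3 with DMSO and 4.78, 4.56 and 3.88 with WFA, a mean log2 difference of -1.68.

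Some pathway genes lay under the filter and were not tested. CASP5, an inflammatory caspase, had 1, 0 and 3 counts in the DMSO libraries and 11, 8 and 9 counts in the WFA libraries. NAIP, an IAP family gene that senses bacterial proteins, had 6 counts in each DMSO library and 0, 0 and 2 counts in the WFA libraries. TNFSF12, which encodes TWEAK, had 13, 10 and 7 counts with DMSO and 5, 4 and 4 counts with WFA, while its receptor gene TNFRSF12A rose from 1.16 ± 0.460 to 5.02 ± 0.371 CPM (SD, n = 3 each; edgeR adjusted p = 1.78e-05). A gene on the same strand, TNFSF12-TNFSF13, overlaps 553 bases (35.6%) of the annotated TNFSF12 exons, and how shared reads were counted is not given. TNFAIP3, which encodes the ubiquitin-editing enzyme A20 and is an NF-κB target like BIRC3 and CFLAR, fell from 33.2 ± 2.45 to 15.5 ± 3.13 CPM (edgeR adjusted p = 1.27e-05). Its direction was that of BIRC3 and not that of CFLAR, which rose. TNFAIP3 was named after its values were seen, and the other genes of the lists were not sorted by NF-κB regulation. A shared change of NF-κB targets was not tested.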
